A study of Mus musculus with 8 samples.

Results

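The cytosolic ribosomal protein genes encode the proteins of the small and the large subunit of the ribosome that translates nuclear-encoded mRNAs. They were taken by symbol, as Rpl or Rps followed by a digit, or Rpsa, Rplp0, Rplp1 or Rplp2, without the Rps6k kinases and without symbols ending in -ps, which mark pseudogene copies. The rule found 83 of the 12404 genes in the count table. Of these, 75 were standard subunits, 30 of the small and 45 of the large subunit, and 8 were paralogs, retrogene copies or interactors. Of the 93 symbols that meet the rule in the gene name table, 10 had no row in the count table, among the standard subunits Rpl29 and Rps10. The RNA of these 10 is not analysed here, and Rps27rt enters only through a peak.

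TM3 cells are a long-established mouse line derived from Leydig cells, which make testosterone in the testis. RNA-seq and MeRIP-seq, an antibody pull-down of RNA fragments carrying N6-methyladenosine (m6A), were run on TM3 cells exposed to bisphenol A (BPA), a plastics monomer with estrogen-like activity, and on normal TM3 cells. Each condition had 2 libraries per assay, and the RNA-seq libraries also served as input for the MeRIP-seq. The labels give neither a dose nor an exposure time, name no vehicle for the normal cells and do not say whether libraries came from separate cultures, so the spread behind the p-values is that of libraries and could be technical alone.

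Ribosomal proteins are made in near-equal numbers and assemble with ribosomal RNA in the nucleolus, and copies made in excess are degraded. Their mRNAs are known as TOP mRNAs, because transcription starts at a cytosine followed by a run of pyrimidines (the terminal oligopyrimidine tract), and mTORC1 controls their translation through this tract and the protein Larp1. Free Rpl5 and Rpl11, bound to the 5S rRNA, inhibit Mdm2 and so raise p53, which links ribosome assembly to growth control. Because their mRNAs are short and abundant, these genes have left many processed pseudogenes in the mouse genome, and reads from a gene and a near-identical copy can be assigned to either or dropped.

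Start windows of 7 of the genes described below are given first, since the TOP tract is the feature by which these mRNAs are regulated together. Each holds 15 bases before and 15 bases after the annotated start, from RefSeq on GRCm38.p6, with capitals on an unbroken run of C and T that covers the first transcribed base. Rps18 (chr17:33955651-33955680, minus strand), Rps15a (chr7:118116133-118116162, minus strand) and Rps6 (chr4:86857353-86857382, minus strand) had fewer reads in BPA, and Rpl15 (chr14:18270972-18271001, minus strand) and Rpl38 (chr11:114668565-114668594, plus strand) had higher levels. Rps19bp1 (chr15:80264292-80264321, minus strand) is not a subunit, and Rpl4 (chr9:64173372-64173401, plus strand) had the most reads of the 83, with no scaling by length.
Rps18: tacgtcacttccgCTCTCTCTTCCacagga
Rps15a: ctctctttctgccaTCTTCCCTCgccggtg
Rps6: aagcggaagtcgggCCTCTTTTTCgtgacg
Rpl15: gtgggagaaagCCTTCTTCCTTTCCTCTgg
Rpl38: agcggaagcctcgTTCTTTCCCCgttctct
Rps19bp1: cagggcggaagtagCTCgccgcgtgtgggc
Rpl4: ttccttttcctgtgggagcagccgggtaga
The first 5 carry runs of 9 to 17 pyrimidines over the start, in genes on both sides of the comparison. They do not stand for all genes described below. In this annotation the run was 0 bases in Rps15 and Rpl19, lower in BPA, and in Rpl23 and Rpl37, higher in BPA. Rps19bp1 has a run of 3 bases, and in Rpl4 the annotated first base is a purine, with a pyrimidine run lying upstream of it.

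Promoter sequences, from 250 bases before to 50 bases after the start, were matched by symbol for 61 of the 83 genes. A C followed by 4 pyrimidines exactly at the annotated start was present in 12 of the 61 (19.7%), against 3.01% of 27025 genes. A C followed by 7 pyrimidines anywhere from 10 bases before to 20 bases after the start was present in 23 (37.7%), against 10.1% of all genes. Over the whole window and on both strands, CCGGAAG, a core bound by ETS factors such as GABP, was found in 24 (39.3%) against 9.93% of all genes, and AAGATGGC, the YY1 core, in 6 (9.84%) against 3.19%. GGGCGG, the Sp1 box, was found in 38 (62.3%) against 38.2%, and TATAAA in 7 (11.5%) against 15.7%. These are matches of letters in 1 annotated window per start, and no test was made of them.

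The BPA libraries held 8813870 and 6305121 gene reads and the normal libraries 10455643 and 7517482. Genes were more often near 0 in BPA throughout the table, with 10 or fewer reads in 49.1% and 54.9% of all genes in the BPA libraries and in 28.3% and 22.8% in the normal libraries. For the ribosomal protein genes these shares were 22.9% and 27.7% in BPA, against 7.23% in each normal library. Their median was 547 and 356 reads in BPA, against 800 and 527 reads in normal cells. Between replicates, the rank correlation over the 76 tested ribosomal protein genes was 0.67 in BPA, against 0.78 in normal cells, given as a description of reads not scaled by gene length. Of 10 listed Leydig markers, 2 had a row, Scarb1 and Tspo. The other 8, among them Star, Cyp11a1 and Insl3, had none, so these reads do not establish the Leydig identity of the line. Of 21 markers of Sertoli, germ, smooth muscle, endothelial and macrophage cells, 6 had a row: Clu, Wt1, Dhh, Stra8, Cd68 and Acta2. Their summed reads were 2959 and 2457 in BPA, against 1999 and 2719 in normal cells, most of them on Wt1 in 3 of the 4 libraries. Single markers did not all follow the sum. Acta2, a smooth muscle actin, had 498 and 1270 reads in BPA, against 80 and 352 in normal cells (log2 change 2.57 ± 1.25, SE), and Cd68, a macrophage marker, had 174 and 436 in BPA, against 0 and 59 in normal cells (3.88 ± 2.05). Scarb1 had 1677 and 331 reads in BPA, against 458 and 150 in normal cells (2.13 ± 1.0997), and Tspo had 320 and 61 in BPA, against 12 and 36 in normal cells (3.42 ± 1.86). These 4 lay above both normal libraries in CPM in both BPA libraries, none passed an unadjusted p of 0.05 by edgeR, and their part in the results below was not tested.

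As a share of all gene reads, ribosomal protein genes were lower in both BPA libraries than in either normal library, an order that depended on the total used. These genes made up 1.29% and 0.919% of gene reads in the BPA libraries, against 1.57% and 1.32% in the normal libraries. The closest values were 1.29% in BPA, against 1.32% in normal cells. The means were 1.104% ± 0.262 in BPA, against 1.45% ± 0.175 in normal cells (SD, n = 2 each), a difference of -0.344 percentage points with an exact two-sided permutation p of 0.333, the smallest that 2 against 2 libraries can give. With totals scaled by TMM, the scaling used for CPM below, the shares were 1.32% and 1.08% in BPA, against 1.42% and 1.28% in normal cells, so the conditions overlapped and the difference shrank to -0.149 points. In bulk RNA, less ribosomal protein mRNA per cell and fewer cells with high levels cannot be told apart.

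Both subunits shared the order seen with unscaled totals. The small subunit took 0.512% and 0.283% of reads in BPA, against 0.558% and 0.519% in normal cells, and the large subunit 0.761% and 0.597% in BPA, against 0.978% and 0.769% in normal cells. The second BPA library was the lowest of the 4 in each subunit. With TMM-scaled totals the conditions overlapped in both, at 0.525% and 0.333% in BPA, against 0.506% and 0.500% in normal cells for the small subunit, and at 0.779% and 0.704% in BPA, against 0.886% and 0.741% in normal cells for the large subunit. The 72 genes with symbols of mitochondrial ribosomal proteins, which build a separate ribosome, include the pseudogene copies Mrpl23-ps1 and Mrpl48-ps. By contrast, -ps symbols were left out of the cytosolic set. The 72 took 0.197% and 0.127% of unscaled totals in BPA, against 0.216% and 0.202% in normal cells, and overlapped with TMM-scaled totals. The 17 mitochondrially encoded genes lay the other way with either total, at 3.61% and 4.44% of unscaled totals in BPA, against 3.33% and 3.12% in normal cells. Leaving them out of the total changed the ribosomal protein difference to -0.347 points.

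**Figure D1:**
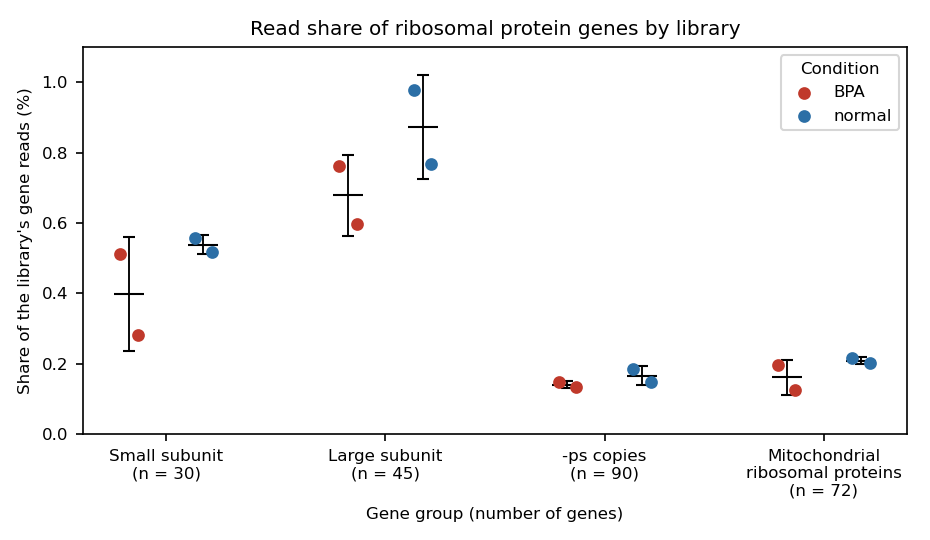
Share of each library's gene reads, with unscaled totals (%, y axis) in 4 gene groups (x axis). Points are single libraries, BPA left of normal, and the bars give mean ± SD of 2 libraries. Both BPA points of the small and of the large subunit lie below both normal points, and the second BPA library is lowest.

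Gene by gene, none of the 76 ribosomal protein genes that passed the filter on low counts passed the adjusted test. The filter removed 7 genes, Rps2, Rps27, Rpl7a, Rpl23a, Rpl24, Rpl35a and Rpl36. By the quasi-likelihood test of edgeR with Benjamini-Hochberg adjustment over 8645 genes, 0 of 76 and 0% of all genes passed 0.05, with 0.372 as the lowest adjusted p. Without adjustment, 1 of the 76 was lower in BPA at p under 0.05 (7.23% of all genes) and 0 were higher (2.41% of all genes). DESeq2 called 1 of the 76 lower at an adjusted p under 0.05 (2.53% of all genes) and 0 higher (0.521% of all genes). In both tools the gene was Rps18.

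As a group the log2 fold changes leaned below 0. The median over the 76 was -0.30, against -0.02 over all tested genes, and 51 of 76 (67.1%) were negative, against 50.5% of all. The median was -0.33 in the small subunit, where 19 of 28 were negative, and -0.26 in the large subunit, where 27 of 40 were negative. Relative to the median of all genes the group stood at -0.28 with the scaling used here, -0.28 with DESeq2's size factors and -0.27 with library totals alone. Without the first BPA library this difference became 2.08, without the second BPA library 0.83 and with no filter on low counts 0.09, in fits that tested 11088, 11129 and 12404 genes and in which the median of all genes stood at -2.87, -1.13 and -0.37.

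**Figure D2:**
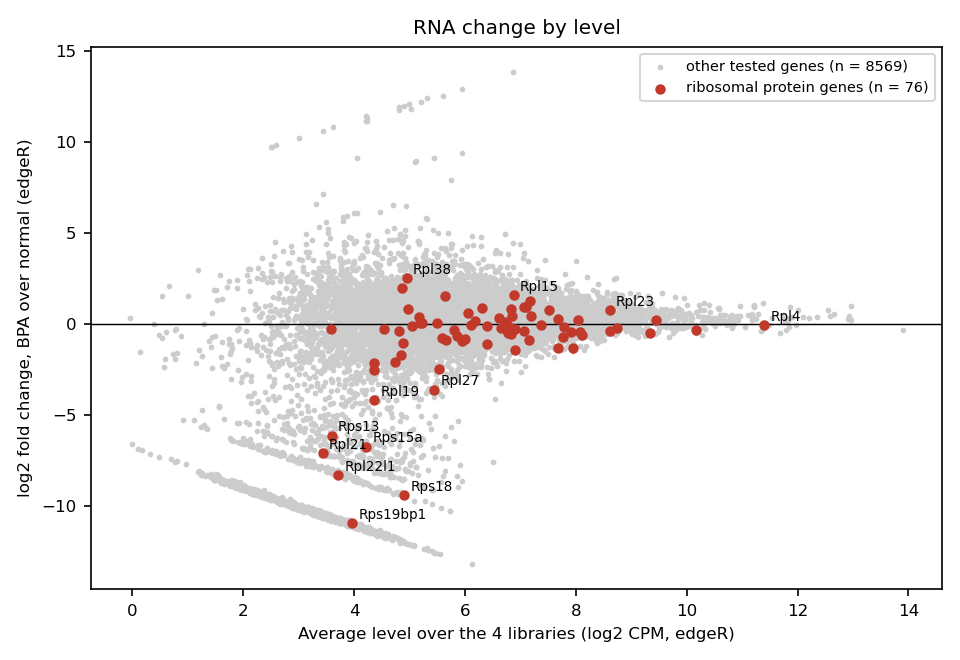
Log2 fold change of RNA, BPA over normal (y axis), against average log2 CPM over the 4 libraries (x axis), from edgeR. Red points are the 76 tested ribosomal protein genes and grey points the other tested genes. Abundant members such as Rpl4 sit near 0, and Rps18, Rps19bp1, Rpl22l1, Rpl21, Rps15a and Rps13 sit below -5 in the band of genes with almost no BPA reads.

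Among the 76, both BPA libraries lay below both normal libraries in CPM (reads scaled to a common library total with TMM) for 22 genes (28.9%), against 27.2% of all genes. Both lay above for 7 genes (9.21%), against 12.8%. These shares stand near those of the whole table.

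Within the small subunit, Rps18, which sits in the head of the subunit, had the widest gap. It had 1 and 0 reads in BPA, against 589 and 526 reads in normal cells. The depth-scaled ratio of BPA to normal was 0.00124 (95% exact interval 3.14e-05 to 0.00694, counting error only). The fitted log2 change was -9.39 ± 4.10 (SE, as for all log2 changes below), with an unadjusted p of 0.04 and an adjusted p of 0.372 by the quasi-likelihood test of edgeR with Benjamini-Hochberg adjustment, and an adjusted p of 0.0119 by DESeq2.

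Rps15a, a component of the small subunit's body, had 1 and 4 reads in BPA, against 678 and 108 in normal cells, a ratio of 0.00881 (0.00285 to 0.0207). Rps13, near the platform of the subunit, had 5 and 0 reads in BPA, against 463 and 52 in normal cells, a ratio of 0.0135 (0.00435 to 0.0316). The conditions did not overlap in either gene, and the adjusted p was 0.372 and 0.374 by the quasi-likelihood test of edgeR with Benjamini-Hochberg adjustment. Rps6, the ribosomal protein phosphorylated by S6 kinase, had 91 and 90 reads in BPA, against 419 and 387 in normal cells, with a log2 change of -1.69 ± 1.46. Rps15, at the head of the subunit, had 130 and 65 reads in BPA, against 910 and 606 in normal cells, with a log2 change of -2.49 ± 1.37. Both BPA values of these 2 genes lay below both normal values. The copy Rps6-ps4, however, had 255 and 1361 reads in BPA, against 380 and 436 in normal cells, so its conditions overlapped. Whether reads of Rps6 were assigned to this copy was not tested.

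Rps3, Rps24, Rps27a and Rpsa were among the 12 members with the highest mean CPM. Rps3, at the mRNA entry of the subunit and also a DNA repair enzyme, had 3605 and 2009 reads in BPA, against 5932 and 3221 in normal cells (log2 change -0.22 ± 0.51). Rps24, which is mutated in some patients with Diamond-Blackfan anaemia, had 2187 and 964 reads in BPA, against 3605 and 2809 in normal cells (-0.61 ± 0.60). In CPM, Rps24 did not overlap between conditions and Rps3 did, and neither passed the adjusted test. The log2 change of Rps3 turned to 0.082 without the first normal library.

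Rps27a is made as a fusion with ubiquitin and supplies both proteins. It had 7324 and 3511 reads in BPA, against 8571 and 4113 in normal cells, or 754 ± 138 CPM in BPA, against 635 ± 152 CPM in normal cells (SD, n = 2 each), with a log2 change of 0.25 ± 0.45. Rpsa, also known as a laminin receptor, had 3728 and 692 reads in BPA, against 4216 and 910 in normal cells. Its replicates differed more than its conditions (log2 change 0.24 ± 0.72, and -0.89 without the first BPA library or -0.29 without the second normal library).

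Within the large subunit, Rpl4, whose extension lines the exit tunnel, had near-equal CPM in replicates. It had 22673 and 14089 reads in BPA, against 32035 and 21608 in normal cells, or 2634 ± 1.18 CPM in BPA, against 2774 ± 3.56 CPM in normal cells (SD, n = 2 each). The replicates lay closer to each other than the conditions did. The log2 change was -0.07 ± 0.31, and its sign turned, to 0.063 with DESeq2's size factors and to 0.056 without the first normal library. Rpl10a had 2394 and 664 reads in BPA, against 3514 and 2021 in normal cells (-0.44 ± 0.65, and 0.015 without the second BPA library). Rpl3, at the peptidyl transferase centre, had 908 and 503 reads in BPA, against 1708 and 1736 in normal cells (-0.86 ± 0.79). Only Rpl10a of these overlapped between conditions in CPM.

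Rpl41, the smallest of the ribosomal proteins, had 1091 and 594 reads in BPA, against 3943 and 1871 in normal cells, with a log2 change of -1.29 ± 0.69 and an adjusted p of 0.399 by the quasi-likelihood test of edgeR with Benjamini-Hochberg adjustment. Rpl12, at the base of the stalk, had 679 and 276 reads in BPA, against 2572 and 985 in normal cells (-1.40 ± 0.88). Rpl27 had 1 and 86 reads in BPA, against 707 and 744 in normal cells (-3.59 ± 1.74), and Rpl19 had 23 and 7 reads in BPA, against 490 and 273 in normal cells (-4.18 ± 2.14). In these 4 genes every BPA library lay below every normal library. Rpl21 had 0 and 2 reads in BPA, against 260 and 150 in normal cells, a ratio of 0.00676 (0.000816 to 0.0246).

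Higher levels in both BPA libraries were found for Rpl13a, Rpl15, Rpl23, Rpl30, Rpl37, Rpl38 and Rps23. Rpl15 had 1921 and 700 reads in BPA, against 774 and 386 in normal cells, with a log2 change of 1.61 ± 0.87 and an adjusted p of 0.404 by the quasi-likelihood test of edgeR with Benjamini-Hochberg adjustment. Rpl23, which like Rpl5 and Rpl11 can bind Mdm2, had 4216 and 2647 reads in BPA, against 3032 and 2457 in normal cells (0.77 ± 0.52). Its CPM was 492 ± 3.37 in BPA, against 289 ± 37.0 in normal cells (SD, n = 2 each). Rpl30 had 2106 and 849 reads in BPA, against 569 and 990 in normal cells (1.29 ± 0.82). Rpl38, which in mouse is needed for the translation of a subset of Hox mRNAs, had 526 and 211 reads in BPA, against 2 and 171 in normal cells (2.51 ± 1.62). None of the 7 passed an unadjusted p of 0.05.

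The stalk of the large subunit recruits translation factors and is built from Rplp0, Rplp1 and Rplp2. Rplp0 had 6416 and 1743 reads in BPA, against 10994 and 4378 in normal cells (log2 change -0.48 ± 0.51). Rplp1 had 306 and 195 reads in BPA, against 967 and 350 in normal cells (-0.89 ± 1.21), and Rplp2 had 345 and 332 reads in BPA, against 871 and 337 in normal cells (-0.31 ± 1.16). Of the 3, only Rplp1 had both BPA libraries below both normal libraries in CPM. The log2 change of Rplp0 turned to 0.11 without the first normal library and to 0.0091 without the second BPA library, and that of Rplp2 to 0.066 without the first BPA library and to 0.32 without the first normal library.

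For the 5S RNP, Rpl5 had 3665 and 1382 reads in BPA, against 7525 and 1857 in normal cells (-0.38 ± 0.60). Rpl11 had 2036 and 1165 reads in BPA, against 3552 and 2455 in normal cells (-0.45 ± 0.59). When the first normal library was left out, the sign of Rpl5 turned to 0.69. The list of the 5S RNP and p53 had 8 tested genes, of which 0 passed an unadjusted p of 0.05 in either direction. Within it Mdm2 had 870 and 1615 reads in BPA, against 2741 and 1803 in normal cells, and Cdkn1a, the p53 target encoding p21, had 389 and 242 in BPA, against 466 and 0 in normal cells. In CPM, Mdm2 overlapped between conditions. Cdkn1a did not, at 45.2 and 45.2 CPM in BPA, against 40.4 and 0 CPM in normal cells (log2 change 0.96 ± 1.42).

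Among the 8 genes that are not standard subunits, Rps19bp1, whose product binds Rps19 and the deacetylase Sirt1, had 0 and 0 reads in BPA, against 203 and 341 in normal cells. At a floor of 3 counts over the group this is at least 131-fold lower in BPA. Rpl22l1, the paralog that Rpl22 represses in mouse cells, had 1 and 0 reads in BPA, against 416 and 119 in normal cells, a ratio of 0.00259 (6.55e-05 to 0.0145). Rpl22 itself had 1292 and 302 reads in BPA, against 1728 and 670 in normal cells, a log2 change of -0.14 ± 0.88, which lay between -1.05 and 0.50 with single libraries left out and turned positive without the second BPA or the first normal library. Rps27l, a p53-induced paralog of Rps27, had 0 and 94 reads in BPA, against 246 and 329 in normal cells (-2.14 ± 1.84).

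The other 5 overlapped between conditions. Rpl7l1 had 908 and 356 reads in BPA, against 731 and 1571 in normal cells, and Rpl37rt, a retrotransposed copy of Rpl37, had 490 and 909 in BPA, against 1344 and 358 in normal cells. Leaving out single libraries moved the log2 change of Rpl7l1 between -1.04 and 0.52 and that of Rpl37rt between -0.54 and 1.32. Rpl6l had 3 and 136 reads in BPA, against 224 and 15 in normal cells. Rps3a2 had 85 and 411 reads in BPA, against 354 and 61 in normal cells, and Rps3a3 had 6 and 519 in BPA, against 195 and 8 in normal cells, so that both Rps3a copies were high in the second BPA and the first normal library. The main gene, Rps3a1, had 1911 and 1018 reads in BPA, against 2188 and 2214 in normal cells.

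Almost no BPA reads were also found here for some genes with many normal reads. Of 69 ribosomal protein genes with at least 100 reads in both normal libraries, 5 had 10 or fewer in both BPA libraries (7.25%), against 12.3% of all such genes. The 5 were Rpl21, Rpl22l1, Rps15a, Rps18 and Rps19bp1. A larger number was split between replicates. In BPA, 12 of 76 (15.8%) had at least 100 reads in one library and 10 or fewer in the other, against 31.2% of all genes, and in normal cells 3 of 76 (3.95%), against 8.12%. These shares rest on few members and were not matched for level. In normal cells the median was 800 and 527 reads in the ribosomal protein genes, against 233 and 150 in all genes.

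The split genes show how far single libraries went. Rps21 had 1504 and 7 reads in BPA, against 1088 and 1282 in normal cells. Rpl39 had 1279 and 4 reads in BPA, against 937 and 835 in normal cells. In both genes the first BPA library was close to the normal ones. In the opposite direction, Rpl13 had 3 and 491 reads in BPA, against 378 and 944 in normal cells. Of the 12 BPA splits, 8 were low in the second library (among them Rpl17, Rpl35, Rpl39, Rps14, Rps19, Rps21 and Rps29) and 4 in the first (Rpl6l, Rpl13, Rpl34 and Rps3a3). Rpl34 was split in both conditions, at 0 and 266 reads in BPA, against 483 and 0 in normal cells. For Rpl39, the copy Rpl39-ps held 190 and 983 reads in BPA, against 623 and 628 in normal cells. It thus held most reads in the library where Rpl39 held fewest, and whether reads of Rpl39 were assigned to it was not tested. The main copy of Rpl17, given below, did not show this.

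**Figure D3:**
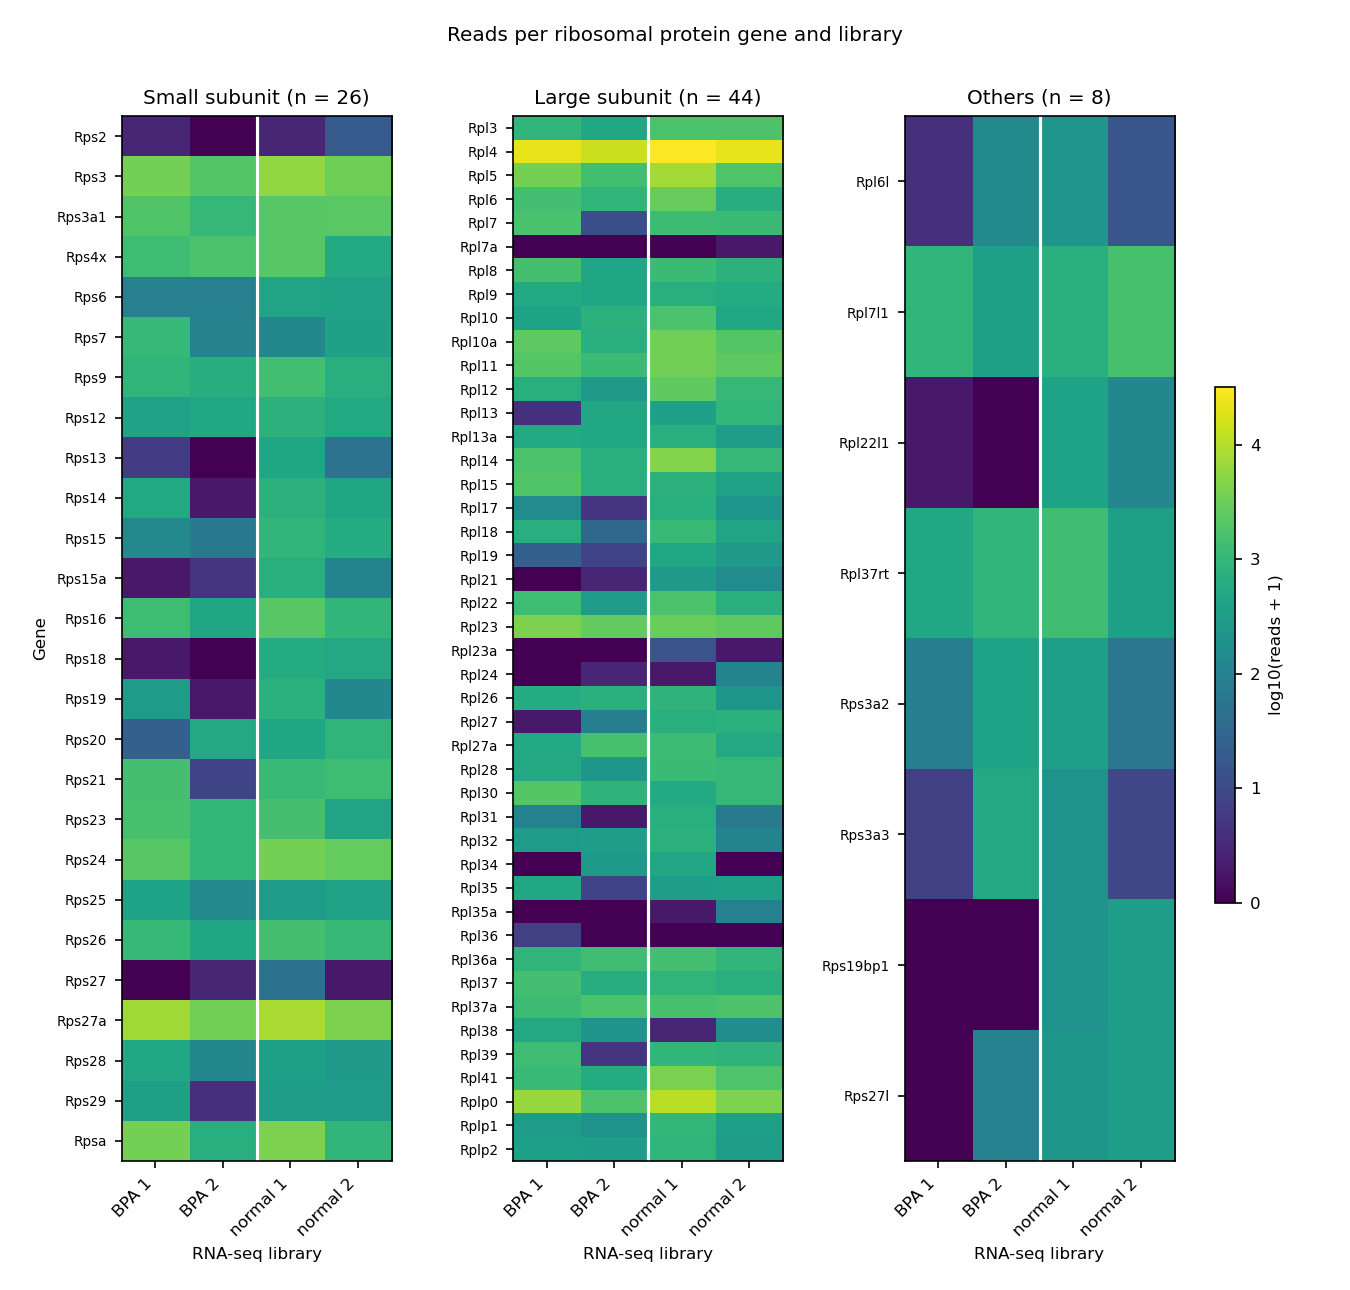
Reads of the ribosomal protein genes reported here (rows) in the 4 RNA-seq libraries (columns, BPA left of the white line and normal right), coloured by log10(reads + 1). Dark cells stand for few or no reads. Rps2, Rpl7a, Rpl23a and Rpl36 are dark in all columns, and Rps18, Rpl21 and Rps15a in the BPA columns.

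The 7 genes removed by the filter on low counts had few reads in most libraries, and for 3 of them copies named as pseudogenes held many more. Rps2, which lies at the mRNA entry, had 2 and 0 reads in BPA, against 2 and 18 in normal cells, 22 in all, and its -ps copies held 3239. Rpl36 had 6 reads over the 4 libraries and Rpl23a had 14, against 353 and 389 on their -ps copies. Rpl7a had 1 read over the 4 libraries and its -ps copies 6, so neither held many. Rpl35a had 0 and 0 reads in BPA, against 1 and 94 in normal cells, at least 22.9-fold lower at a floor of 3 counts over the group. Rpl24 had 0 and 2 reads in BPA, against 1 and 106 in normal cells, a ratio of 0.0259 (0.0031 to 0.0959). Rps27 had 0 and 2 reads in BPA, against 48 and 1 in normal cells, a ratio of 0.0566 (0.00666 to 0.215). In these 3 genes a single normal library held nearly all the reads, and the -ps copies of Rpl35a held 4 reads in all, while Rpl24 and Rps27 had no -ps row. Levels of these 7 genes are uncertain in both conditions.

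The table held 90 ribosomal protein -ps rows, and 42 of the 75 standard subunits had at least 1. In 12 of the 75, the -ps rows held more reads than the gene: Rpl3, Rpl7a, Rpl17, Rpl19, Rpl21, Rpl23a, Rpl36, Rps2, Rps6, Rps13, Rps15a and Rps25. Rpl17 had 1049 reads and its copies 10199, most of them on Rpl17-ps10, with 2990 and 1266 in BPA, against 2788 and 3083 in normal cells. Rpl19 had 793 reads and its copies 5440, with 2187 and 724 in BPA, against 1797 and 649 in normal cells on Rpl19-ps11. Rpl3-ps1 had 1040 and 648 reads in BPA, against 1766 and 1619 in normal cells. The 3 copies held reads in all 4 libraries, while Rpl17 had 147 and 4 reads in BPA, against 669 and 229 in normal cells.

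Copies of 3 genes that were low in both BPA libraries were uneven between libraries. Rps15a-ps6 had 326 and 0 reads in BPA, against 218 and 132 in normal cells, and Rps15a-ps5 had 5 and 440 in BPA, against 9 and 3 in normal cells. Rps13-ps2 had 241 and 2 reads in BPA, against 360 and 0 in normal cells, and Rpl21-ps10 had 879 and 2 in BPA, against 113 and 110 in normal cells. Another copy, Rpl21-ps15, had 0 and 0 reads in BPA, against 201 and 62 in normal cells. At least 1 BPA library held 241 or more reads on a copy of each gene. Whether reads of a gene were assigned to its copies was not tested.

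RefSeq on GRCm38 names 321 ribosomal protein -ps copies, and subunits with more of them had fewer reads. The 12 standard subunits with 10 or more named copies had a median of 831 reads over the 4 libraries, the 48 with 1 to 9 had 2699, and the 15 with none had 5802. The rank correlation over the 75 subunits was -0.42, a description of reads that are not scaled by gene length and come from the same 4 libraries. Adding the -ps rows to the members gave 1.44% and 1.05% of reads in BPA, against 1.76% and 1.47% in normal cells, a difference of -0.369 points. Copies with other names were not counted.

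**Figure D4:**
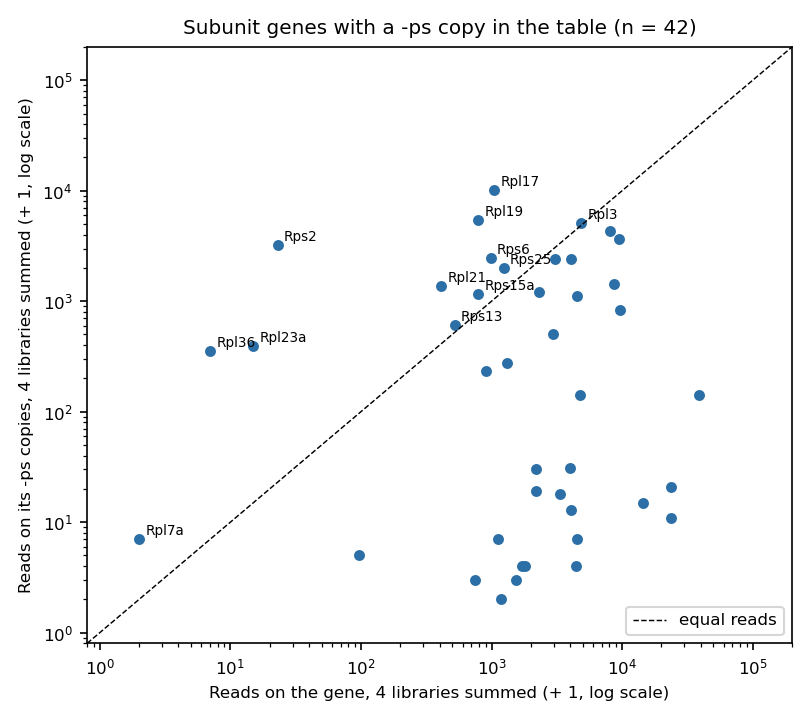
Reads on each standard subunit gene (x axis, log scale) against reads on its -ps copies (y axis, log scale), summed over the 2 BPA and 2 normal libraries with 1 added, for the 42 subunits with a -ps row. Named points lie above the dashed line of equal reads, with Rps2 at 22 against 3239 and Rpl17 at 1049 against 10199.

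The authors' table of differential m6A peaks held 51 peaks in 35 ribosomal protein genes, of 3331 peaks in 2295 genes, and one of the 35, Rps27rt, had no row in the count table. Its values are RPM, pooled over replicates, for the immunoprecipitate (IP) and for the input of each condition, so they carry no replicate error. RPM are reads scaled to a common total. Over the 3331 peaks they summed to 877723 in IP and 894159 in input in BPA, against 826089 and 884773 in normal cells. Whether the total was all reads of a library or reads in peaks was not tested, so RPM and gene reads need not share a scale. The 51 peaks held 48 distinct sets of values, since pairs such as those in Rpl18 and Rps25 were identical. Coordinates are read as GRCm39, a build named in the processing notes, since only 1 of the 51 peaks lay inside the span of its gene on GRCm38.

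Of the 51 peaks, 41 (80.4%) had a log2 change of IP over input above 0 in the authors' deposited table, against 68.8% of all peaks, with a median of 2.69, against 3.33 for all peaks. The IP alone was higher in BPA in 23 of the 51 (45.1%), against 54.2% of all peaks, and the input was higher in BPA in 17 (33.3%), against 36.6%. The median input was 170 RPM in BPA, against 310 RPM in normal cells, where over all peaks it was 13.4 RPM in BPA, against 167 RPM in normal cells. Among the 51, the median IP was 289 RPM in BPA, against 263 RPM in normal cells. In 12 peaks (23.5%) the BPA input was at most 5.5 times the smallest nonzero value of its column, 1.22 RPM, against 39.6% of all peaks.

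For 24 of the 51 peaks each of the 4 values was at least 100 times the smallest nonzero value of its column. In these, the authors' deposited table had a log2 change above 0 in 15, with a median of 0.53, against 532 of the 1016 such peaks of all genes, with a median of 0.38. The log2 change in the authors' deposited table exceeded the log2 ratio of the 4 RPM values by a near-constant 0.78 in these members (5th to 95th percentile 0.77 to 0.79). On the RPM values alone, with 1 RPM added, IP over input was higher in BPA in 9 of the 24 (37.5%), against 40.8% of all 1016 peaks, with a median log2 of -0.24, against -0.40. The direction thus turned with the offset in 6 of the 24 peaks.

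The largest of these peaks were in Rps7 and Rps3. Rps7 (chr12:28681153-28681782) had 855 RPM IP and 1327 RPM input in BPA, against 1206 RPM IP and 1763 RPM input in normal cells. Rps3 (chr7:99129178-99129202) had 713 RPM IP and 1274 RPM input in BPA, against 1215 RPM IP and 1801 RPM input in normal cells. In both genes the IP lay below the input in each condition, and the log2 ratio of ratios was -0.09 for Rps7 and -0.27 for Rps3. Rpl11 (chr4:135778965-135779960) had 479 RPM IP and 695 RPM input in BPA, against 251 RPM IP and 385 RPM input in normal cells, a ratio of ratios of 0.08. In these 3 genes IP and input moved together. Rpl35 (chr2:38891692-38894132) had 688 RPM IP and 386 RPM input in BPA, against 762 RPM IP and 659 RPM input in normal cells (0.62), and Rps3a2 (chr14:88360878-88360902) had 407 RPM IP and 449 RPM input in BPA, against 290.1 RPM IP and 525 RPM input in normal cells (0.71).

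Peaks with IP over input lower in BPA were led by Rpl7 (chr1:16172936-16173060), with 258 RPM IP and 1743 RPM input in BPA, against 691 RPM IP and 365 RPM input in normal cells, a log2 ratio of ratios of -3.67. Rps28, a subunit near the mRNA exit, had 177 RPM IP and 736 RPM input in BPA, against 523 RPM IP and 312 RPM input in normal cells at chr17:34042143-34042292 (-2.79). Rps20 (chr4:3834559-3834633) had 177 RPM IP and 763 RPM input in BPA, against 536 RPM IP and 491 RPM input in normal cells (-2.23). Here the IP was lower and the input higher in BPA. Rpl27a (chr7:109119679-109119803), with 155 RPM IP and 303 RPM input in BPA, against 773 RPM IP and 575 RPM input in normal cells, was lower in both (-1.39). Other Rpl7 peaks went both ways. At chr1:16173386-16173410 the log2 ratio of ratios was -1.47. At chr1:16171744-16171793 it was 7.61, where the input was 1.22 RPM in BPA, against 246 RPM in normal cells. Gene reads were uneven between the BPA libraries, at 1635 and 11 for Rpl7 and 23 and 525 for Rps20, which pooled input cannot show.

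Peaks with IP over input higher in BPA were led by the stalk gene Rplp2. At chr7:141027920-141027944 it had 312 RPM IP and 142 RPM input in BPA, against 147 RPM IP and 370 RPM input in normal cells, a log2 ratio of ratios of 2.46. Rpl10 (chrX:73314743-73314892), which completes the large subunit, had 346 RPM IP and 291 RPM input in BPA, against 91.3 RPM IP and 224 RPM input in normal cells (1.54). Rplp1 (chr9:61820641-61820765) had 290 RPM IP and 340 RPM input in BPA, against 382 RPM IP and 638 RPM input in normal cells (0.51). IP lay above input in BPA and below it in normal cells for Rplp2 and Rpl10, and below it in each condition for Rplp1.

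Rpl10a held 2 well-covered peaks that moved apart. At chr17:28547945-28547969 it had 334 RPM IP and 626 RPM input in BPA, against 901 RPM IP and 1241 RPM input in normal cells, a log2 ratio of ratios of -0.44. At chr17:28548445-28548494 it had 385 RPM IP and 276 RPM input in BPA, against 213 RPM IP and 446 RPM input in normal cells (1.54).

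A few peaks had almost no IP in 1 condition. Rpl8 (chr15:76789178-76789252) had 236 RPM IP and 170 RPM input in BPA and was listed at 0 IP with 149 RPM input in normal cells. Rpl36a (chrX:133488194-133488268) had 649 RPM IP and 317 RPM input in BPA, against 0.19 RPM IP and 320 RPM input in normal cells. At these peaks of Rpl8 and Rpl36a the input differed little between conditions while the IP stood at or near 0 in normal cells. Another Rpl36a peak (chrX:133487305-133487329) had 520 RPM IP and 314 RPM input in BPA, against 0.19 RPM IP and 168 RPM input in normal cells.

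**Figure D5:**
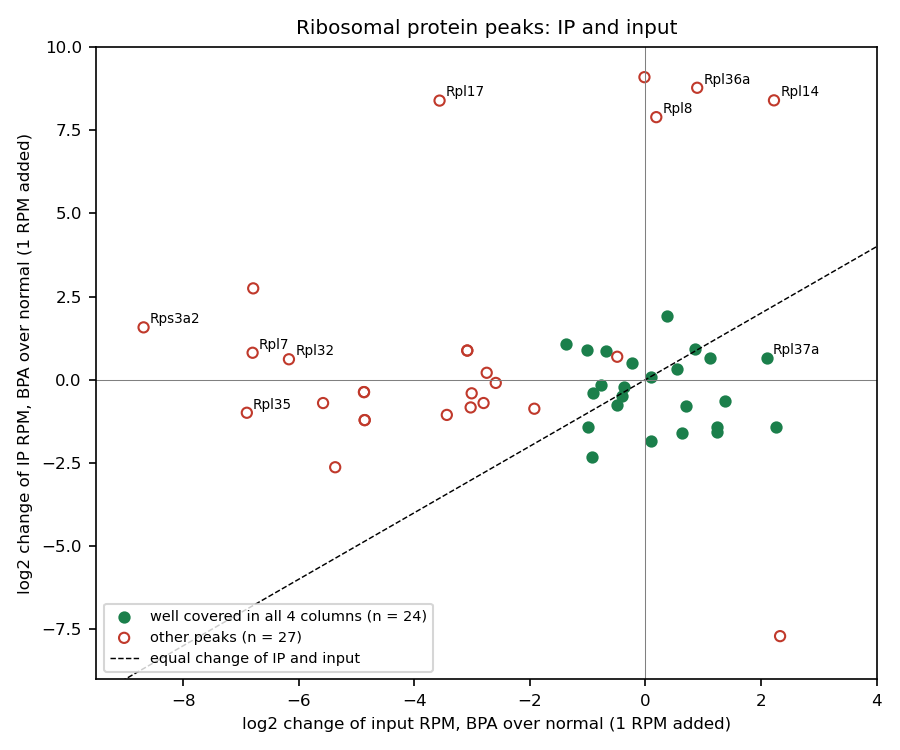
Log2 change of IP RPM (y axis) against log2 change of input RPM (x axis), BPA over normal with 1 RPM added, for the 51 peaks. Filled green points are the 24 peaks well covered in all 4 columns, open red points the other 27, and the dashed line marks equal change. Most open points lie left of 0, where the BPA input was low, and Rpl8, Rpl14, Rpl17 and Rpl36a are among the points that stand apart along the IP axis.

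Peaks held input reads for genes whose own counts were near 0. Rps2 had a peak with 549 RPM input in BPA, against 251 RPM input in normal cells, and Rpl23a had 2 peaks with 105 and 104 RPM input in BPA, against 638 and 397 RPM input in normal cells, although the genes had 22 and 14 reads in all. The -ps copies had 31 peaks in 24 genes. Those in Rpl35a-ps2, Rpl35a-ps3 and Rpl35a-ps4, on different chromosomes, had 1826, 1822 and 1814 RPM input in BPA, against 390, 382 and 381 RPM input in normal cells. Their IP was 197, 197 and 196 RPM in BPA, against 952, 945 and 948 RPM in normal cells. The values at these separate loci were nearly equal, while Rpl35a itself had 95 reads over the 4 libraries, and whether the same reads were counted at each copy was not tested.

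Genes around the ribosome differed in how far they were separated. For the mitochondrial ribosomal proteins, 9 of 56 tested genes were lower in BPA and 0 higher without adjustment (p under 0.05), against 7.23% lower and 2.41% higher of all tested genes, with a median log2 change of -0.66, against -0.02. DESeq2 called 5 of them lower, against 2.53% of all genes. The 56 include the pseudogene copy Mrpl48-ps, with a log2 change of -5.41 ± 2.70, which was not among the 9. Mrpl24 had 4 and 4 reads in BPA, against 1223 and 662 in normal cells, and Mrpl9 had 0 and 0 in BPA, against 996 and 375 in normal cells. Of 24 other TOP mRNAs 1 was higher and 0 lower at that p, with a median of 0.07, and DESeq2 called 1 lower and 0 higher (2.53% and 0.521% of all genes). A single gene of 24 is near those shares. The higher one was Hnrnpa1, a splicing factor, with 18117 and 17133 reads in BPA, against 11916 and 12837 in normal cells (log2 change 0.99 ± 0.38). The median of these TOP mRNAs lay near 0 and that of the ribosomal proteins at -0.30, a difference that was not tested.

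Of 29 tested ribosome assembly genes, 1 was higher and 2 were lower by the same measure, with a median of -0.05, and these counts too are near the 2.41% and 7.23% of all genes. Ncl, the nucleolar protein nucleolin, had 58811 and 43876 reads in BPA, against 56519 and 31640 in normal cells (0.75 ± 0.27), and DESeq2 called it higher and 1 gene of the list lower. Of 7 tested genes of RNA polymerase I and rRNA transcription, 0 were higher and 1 lower, with a median of -0.88, beside the 7.23% of all genes that were lower. That gene was Polr1a, the largest subunit, with 7 and 25 reads in BPA, against 1448 and 119 in normal cells (-5.04 ± 2.27). Of 15 genes that control TOP translation, 1 was higher and 1 lower, with a median of -0.28, beside 2.41% higher and 7.23% lower of all genes. Rheb, the activator of mTORC1, had 622 and 1814 reads in BPA, against 123 and 0 in normal cells (4.94 ± 1.44), and Mlst8, a subunit of mTORC1, had 0 and 0 in BPA, against 73 and 80 in normal cells. DESeq2 called Rheb higher and no other gene of that list. Of 10 tested ribosome rescue genes 0 passed in either direction at an unadjusted p under 0.05, with a median of 0.75. None of the genes in these lists passed the adjusted test by edgeR, with 0 calls over all 8645 genes.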

How the data were processed

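RNA counts were deposited by the authors as whole read counts per Ensembl gene, 1 column per library. The submitters' processing notes list featureCounts 2.0.1, DESeq2 1.38.3, HISAT2 2.2.1 and fastp 0.20.1, and the builds GRCm39 and GRCh38. For strand and for reads with several alignments, the featureCounts settings are not given in these notes. No assay stands in the names of the count columns, which were read as the RNA-seq libraries, and the column prefix WT was read as the normal cells. Symbols came from a gene name table, and 12271 of 12404 genes had one.

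Peak values were deposited by the authors as RPM pooled over replicates, with the authors' log2 fold change, p-value, false discovery rate and a −log10 p score. The sources used here do not give the peak caller or its test. Peak positions are printed 1-based.

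The test of the counts was that of edgeR 4.0.16, run in R 4.3.3 (TMM, filterByExpr by group, robust quasi-likelihood fit, Benjamini-Hochberg at 0.05 over 8645 genes). The procedure was also run on simulated data with a fixed spread and large changes in abundant genes only. That setting differs from the uneven BPA replicates here, so it cannot tell what could be detected in these data. Standard errors were derived from the F statistic. DESeq2 1.42.0 was an alternative, with other scalings, filters, an older quasi-likelihood method, a replicate block and each library left out. Shares were compared by exact permutation with scipy 1.17.1. Intervals and the floor of 3 counts cover counting error only.

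Genes, lists and alternatives were chosen with earlier results of these data known. The text names members with an unadjusted p under 0.05, the 12 with the highest mean CPM, the 12 with the highest peak RPM, members with 10 or fewer reads in both libraries of a condition, the stalk, 5S RNP and ubiquitin-fusion genes, Rpsa, Rpl41 and all non-standard members, and at most 3 genes per further list. Other genes named, for separate conditions, split replicates, reads on copies or outlying peaks, were chosen after their values were seen. Some genes these rules name are not reported here. Promoter windows are RefSeq, GRCm38.p6.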

Additional observations from a re-analysis of the deposited data

How the results depend on the processing

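With 2 libraries a condition and few calls, depth and replicate spread limit what could be detected. The count of genes called was 264 by DESeq2 against 0 by edgeR and ran between 0 and 1 with single libraries left out, the 1 without the first normal library. The count of ribosomal protein genes called was 1 by DESeq2 and 0 under the other settings. At an unadjusted p under 0.05, 208 genes were higher and 625 lower in BPA with TMM, 328 and 429 with DESeq2's size factors, 127 and 925 with library totals alone, 397 and 193 with no filter on low counts, and 117 and 1095 with the older quasi-likelihood method, an alternative chosen after seeing the data. Same-numbered libraries did not deviate together (correlation 0.00409), so their numbers were not taken as pairs. With the replicate block, 0 genes were called and the median of the ribosomal protein genes was -0.32. In a refit limited to genes averaging 1000 reads or more, with its own scaling, that median was -0.54 over 26 members. The median of all genes in that refit is not given here, so -0.54 cannot be read as a stronger fall of abundant members. With single libraries left out, the median of the ribosomal protein genes lay between -0.79 and -0.17. The share difference kept its sign in every setting, from -0.530 to -0.159 points with single libraries left out and at -0.149 with TMM-scaled totals, where the conditions overlapped. Requiring 100 times the smallest value in each column left 24 of 51 peaks, and a false discovery rate under 0.01 left 49.

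Of 366 values of 35 named log2 changes under other settings, 344 kept direction and call, 19 turned sign in 11 genes, and 3 became calls by DESeq2, at -9.58 for Rps18, 0.88 for Ncl and 5.37 for Rheb. Rpl4 turned to 0.063 with DESeq2's size factors and by DESeq2. Over genes averaging 1000 reads or more, Rps27a turned to -0.028 and Rpsa to -0.039. With single libraries left out, Rpl10a ran from -1.14 to 0.015, Rpl22 ran from -1.05 to 0.50, Rpl37rt ran from -0.54 to 1.32, Rpl4 ran from -0.047 to 0.056, Rpl5 ran from -0.88 to 0.69, Rpl7l1 ran from -1.04 to 0.52, Rplp0 ran from -1.18 to 0.11, Rplp2 ran from -0.59 to 0.32, Rps3 ran from -0.34 to 0.082 and Rpsa from -0.89 to 1.48. The cause was not tested.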
